A study of Rattus norvegicus with 9 samples.

Results

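The genes described here are those of the proteasome, the protease complex that degrades ubiquitin-tagged proteins, in rat synovial fibroblasts, which build the lining of the joint. Members were the genes whose symbol starts with Psma to Psmg followed by a number and whose mean level over the 9 libraries was at least 1 FPKM, a fragment abundance corrected for transcript length and library size. Of the 17298 genes measured, 48 symbols matched, and 47 of them reached that level. Psma8, an alpha subunit known from the testis, was the one left out, with 0 to 0.04 FPKM per library. One member, Psmc3ip, encodes a recombination protein that shares only the start of its symbol with the ATPase gene Psmc3, and it is described apart.

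The proteasome core is a barrel of alpha and beta rings, with the proteolytic sites inside the beta rings. A regulatory cap, made of a base with ATPases and a lid, recognises ubiquitin chains, unfolds the substrate and feeds it into the core. In many cells exposed to interferon gamma, the catalytic subunits Psmb5, Psmb6 and Psmb7 are replaced in newly made cores by Psmb8, Psmb9 and Psmb10. The resulting form is called the immunoproteasome and is known for producing peptides that suit presentation on class I molecules of the major histocompatibility complex (MHC).

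Polyadenylated RNA was sequenced from 9 libraries of wild-type synovial fibroblasts, 3 in each of 3 groups. Control cells were kept in routine culture without the inflammatory cytokine interleukin 1 beta (IL-1β). The second group was in normal culture and received IL-1β. The third group received IL-1β and was grown in the lower chamber of a transwell, a 2-chamber dish, with dermal fibroblasts in the upper chamber; it is called the co-culture group here. The dose and duration of IL-1β, the duration of the co-culture, and whether the other groups had an insert are not given by the labels, and a co-culture without IL-1β was not analysed here. No label states that the replicates were independent cultures or animals; p-values therefore rest on the spread between libraries, which may be technical. In RNA from a bulk culture, fewer cells of a type and less RNA per cell cannot be told apart.

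The libraries had FPKM sums of 679774 to 741810, and the sequencing depth is unknown because the values are not counts. Fibroblast markers were abundant in every library, with sums of 11547 to 13929 FPKM over 11 genes. The list of 13 macrophage and leukocyte markers summed to 31.1 to 49.3 FPKM, the endothelial list to at most 1.15 FPKM, the lymphocyte list to at most 0.05 FPKM, the keratinocyte list to 1.4 to 2.68 FPKM and the skeletal muscle list to 3.17 to 15.26 FPKM. Libraries of 1 group had Spearman correlations over genes of 0.9946 to 0.9959, and libraries of different groups 0.9584 to 0.9912. The submitters' processing notes name GRCm38, a mouse build, whereas the gene identifiers are those of rat, so a ranking of genes by level is less certain than a comparison of 1 gene between libraries.

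Proteasome transcripts were abundant. The median member stood at 116 FPKM, against 14.2 FPKM for the median of the 11372 genes tested. The 14 subunits of the constitutive core ranged from 105 FPKM for the alpha subunit Psma3 to 338 FPKM for the beta subunit Psmb1, with a median of 207 FPKM. The 17 subunits of the cap were lower on this length-scaled measure, from 52.4 FPKM for the lid subunit Psmd11 to 217 FPKM for the base ATPase Psmc3, with a median of 125 FPKM. Within the core, the 3 constitutive catalytic subunits lay close together, at 204 FPKM for Psmb6, 206 FPKM for Psmb5 and 220 FPKM for Psmb7.

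Their immunoproteasome counterparts were present at far lower levels, 12.9 FPKM for Psmb8, 13.3 FPKM for Psmb9 and 19.5 FPKM for Psmb10. Psmb8 was the lowest of the 47 members. The activators ranged from 25.0 FPKM for Psme4 to 116 FPKM for Psme1, and the assembly chaperones from 19.6 FPKM for Psmd10 to 68.5 FPKM for Psmg1. Together the members made up 0.82 to 0.827% of a library's FPKM sum in the control group, 0.754 to 0.761% in the IL-1β group and 0.823 to 0.829% in the co-culture group. The IL-1β libraries were below all others in this share, and the control and co-culture libraries overlapped.

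**Figure D1:**
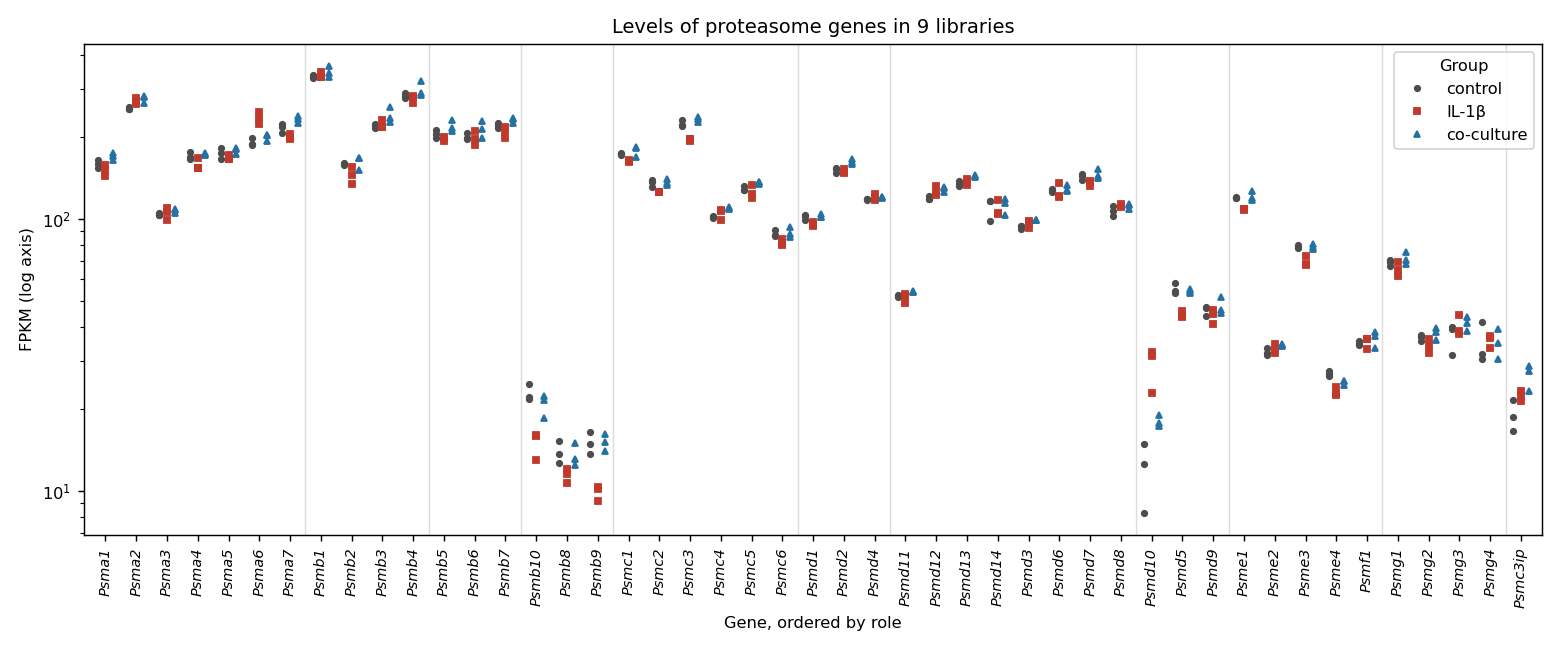
Level of each of the 47 proteasome genes in FPKM (log axis), with 1 point per library and the 3 groups in different colours; genes are ordered by their place in the complex. The core and cap lie between 52.4 and 338 FPKM, and Psmb8, Psmb9 and Psmb10 lie between 12.9 and 19.5 FPKM in the mean of the 9 libraries.

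With IL-1β, most proteasome genes moved little. The 3 immunoproteasome subunits, 3 of the activators, Psmd5 and Psmc3 were among those that fell, and Psmd10 and Psma6 among those that rose. The rise of Psmd10 (log2 fold change 1.23) was the largest change of any member. By limma on log2(FPKM + 1), with Benjamini-Hochberg adjustment over all genes tested and a threshold of 0.05, 4 members rose and 15 fell relative to control. Over all genes tested, 51.7% were called, 20.5% as rises and 31.2% as falls, so the members' share of falls (15 of 47) was near the background. The median log2 fold change was -0.05 over the members and -0.04 over all genes. The groups did not overlap for 4 members in the upward and 15 in the downward direction, against 23.3% and 35% of all genes (58.3% in all). This count depended on how the libraries were scaled, since median-of-ratios scaling gave 9 risen and 8 fallen members, quantile normalization 3 and 22, and rescaling every library to the same FPKM sum 2 and 29. Of all calls, 39.7% were rises as deposited, 50.1% with median-of-ratios scaling and 23.7% after rescaling. Risen members numbered 2 without control replicate 1 or 2 or IL-1β replicate 2 or 3, and fallen members 8 without control replicate 3 and 9 without IL-1β replicate 1. Of the 19 calls, 9 were made in all 18 alternative analyses (other scalings, filters and fits, and each library left out): Psma6, Psmb9, Psmb10, Psmc3, Psmd5, Psmd10, Psme1, Psme3 and Psme4.

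In the co-culture group relative to IL-1β alone, 23 members rose and 2 fell, where 33.3% of all genes rose and 16.7% fell (50% in all). The median log2 fold change was 0.11 over the members and 0.06 over all genes. No overlap between the groups was seen upward for 27 members and downward for 2, against 37.3% and 19.5% of all genes (56.7% in all). With median-of-ratios scaling 7 members rose and 2 fell, with quantile normalization 23 and 2, and with rescaling to the same sum 32 and 1. Of all calls, 66.6% were rises as deposited, 50.8% with median-of-ratios scaling and 73.2% after rescaling. Without IL-1β replicate 1, the number of risen members was 13. Of the 25 calls, 8 were made in all 18 alternatives: Psma6, Psma7, Psmb9, Psmb10, Psmc3, Psmd5, Psme1 and Psme3.

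Between co-culture and control, 6 members rose and 0 fell by limma, with 13 and 1 at an unadjusted p under 0.05. Of all genes, 12.4% rose and 7.91% fell (20.3% in all). The median log2 fold change was 0.05 over the members and 0.02 over all genes. Upward, 15 members had groups that did not overlap, and downward 1 did, against 22.1% and 15.6% of all genes (37.8% in all). Under the 3 other scalings 1 or 2 members rose and 1 fell. Of all calls, 61% were rises as deposited, 46.4% after quantile normalization and 33.9% after rescaling. These 3 comparisons share libraries: the IL-1β libraries enter the first and the second with opposite sign, so each comparison's values are given side by side without a measure of their likeness.

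**Figure D2:**
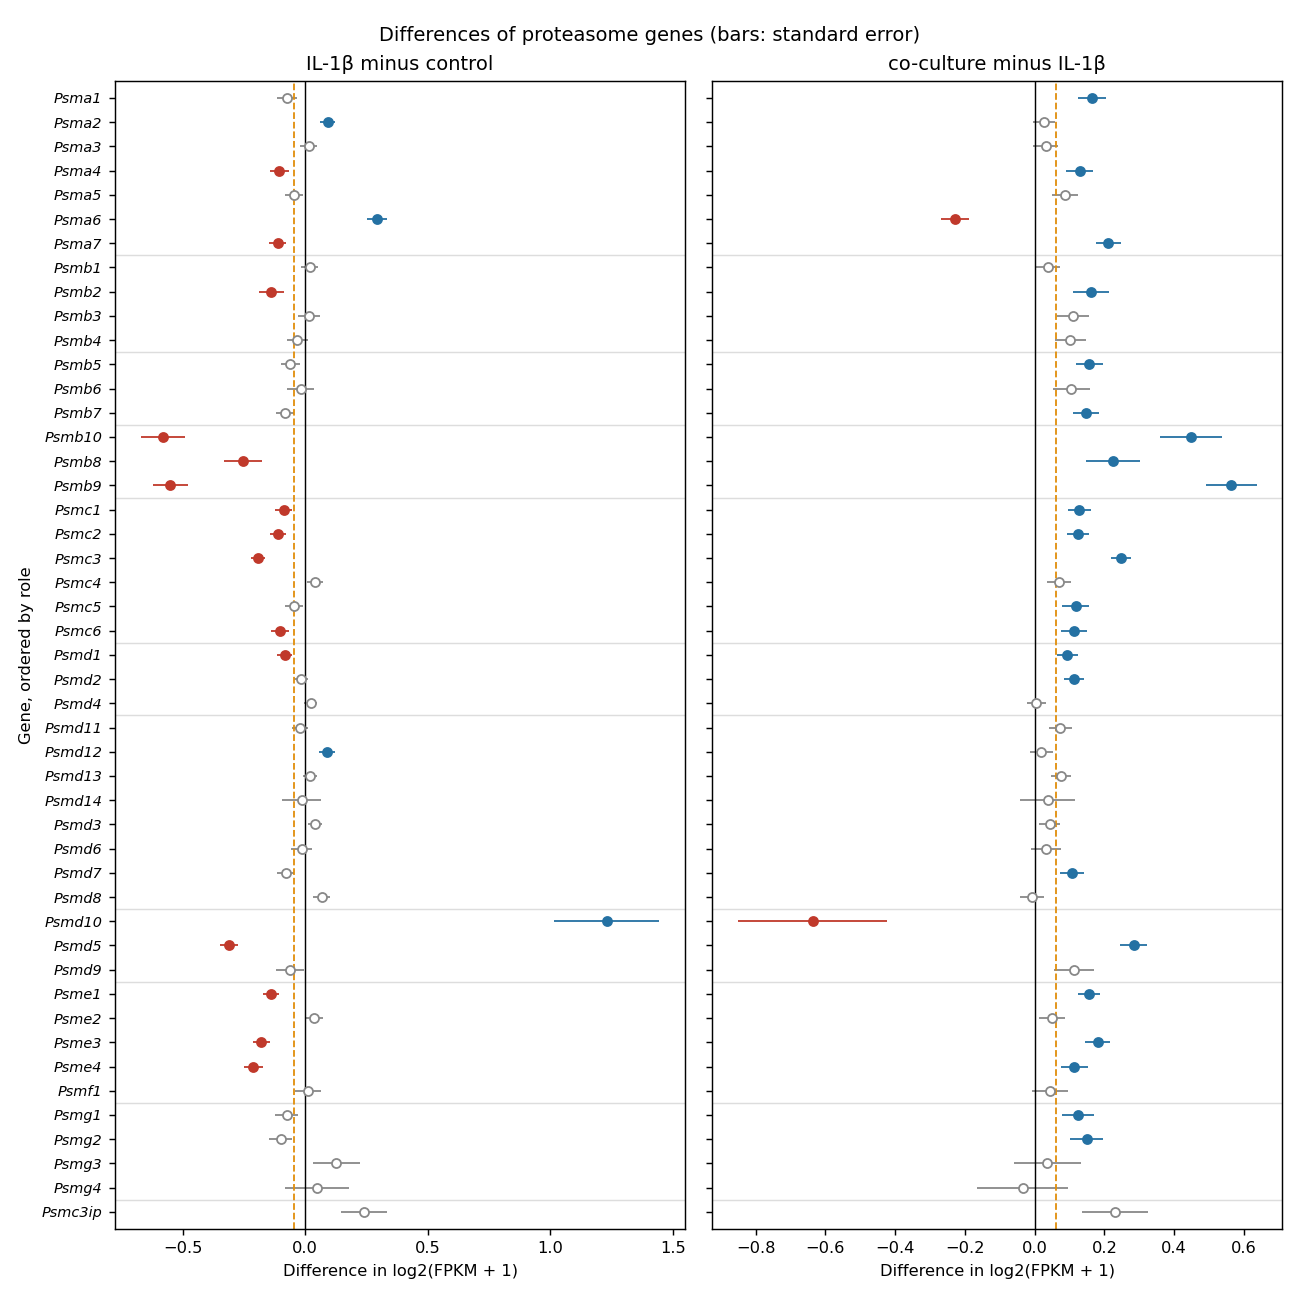
Log2 fold change of each of the 47 proteasome genes on the log2(FPKM + 1) scale, IL-1β minus control and co-culture minus IL-1β, with bars of 1 standard error. Filled points passed the adjusted threshold (blue higher, red lower), open points did not, and the dashed line is the median of all genes tested (-0.04 and 0.06). With IL-1β, Psmd10 (1.23), Psmb9 (-0.55) and Psmb10 (-0.58) lie farthest from 0, and most core and cap genes lie near the dashed line. The cap's 1 rise and 5 falls with IL-1β become 5 rises and 1 fall with median-of-ratios scaling. They become 0 and 7 with quantile normalization and 0 and 10 after rescaling to the same sum.

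All 3 immunoproteasome catalytic subunits were lower with IL-1β than in control and higher in co-culture than with IL-1β alone, where 31.2% of all genes fell and 33.3% rose in these comparisons. Psmb9, the inducible counterpart of the caspase-like subunit Psmb6, had 13.65, 16.42 and 14.90 FPKM in the control libraries, 10.36, 10.18 and 9.18 FPKM with IL-1β, and 14.04, 15.15 and 16.22 FPKM in co-culture. Each IL-1β library was below all 6 others, and the control and co-culture libraries overlapped. The mean fell by 33.9% with IL-1β, a log2 fold change of -0.55 (SE 0.07, limma adjusted p = 5.6e-05, n = 3 a group). In co-culture relative to IL-1β the log2 fold change was 0.56 (SE 0.07, limma adjusted p = 5.6e-05), and relative to control it was 0.01 (limma adjusted p = 0.91).

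Psmb10, the counterpart of the trypsin-like subunit Psmb7, had 21.73, 24.60 and 22.20 FPKM in control, 13.01, 16.10 and 15.85 FPKM with IL-1β, and 21.52, 22.40 and 18.48 FPKM in co-culture. Again every IL-1β library was below the 6 others. Its mean fell by 34.4% with IL-1β, a log2 fold change of -0.58 (SE 0.09, limma adjusted p = 0.00028), and the change from IL-1β to co-culture was 0.45 (SE 0.09, limma adjusted p = 0.0018). Between co-culture and control it was -0.13 (limma adjusted p = 0.35). For Psmb9 and Psmb10, both of the first 2 calls were made in all 18 alternative analyses.

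Psmb8, the counterpart of the chymotrypsin-like subunit Psmb5, had the smallest fold changes of the 3. It had 13.62, 12.63 and 15.23 FPKM in control, 11.50, 12.04 and 10.69 FPKM with IL-1β, and 12.46, 13.13 and 14.96 FPKM in co-culture. The IL-1β libraries were the lowest, but the gap to the nearest library of either other group was under 1 FPKM. The log2 fold change was -0.25 with IL-1β (SE 0.08, limma adjusted p = 0.016) and 0.22 from IL-1β to co-culture (SE 0.08, limma adjusted p = 0.031). Without control replicate 3 the first adjusted p was 0.069 and without IL-1β replicate 3 it was 0.064. The second call was made in 11 of 18 alternatives and was lost with quantile normalization (limma adjusted p = 0.083), without a filter on low genes (0.062), with median-of-ratios scaling (limma adjusted p = 0.11), without IL-1β replicate 1 (0.064), without IL-1β replicate 3 (0.11), and on leaving out co-culture replicate 2 (0.05, above the threshold before rounding) or 3 (0.12).

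The summed level of the 3 inducible subunits was 51.7 ± 2.40 FPKM in control, 36.3 ± 1.80 FPKM with IL-1β and 49.5 ± 1.34 FPKM in co-culture (SD, n = 3). The constitutive catalytic subunits did not pass the threshold with IL-1β: 0 of 3 were called by limma (51.7% of all genes were), and 1 was lower at an unadjusted p under 0.05. Psmb5 had 198.14, 211.13 and 204.24 FPKM in control and 195.53, 198.83 and 193.08 FPKM with IL-1β, which overlap. Psmb6 ranged from 196.47 to 205.92 FPKM and from 186.98 to 210.55 FPKM in the same groups, and Psmb7 from 215.19 to 224.65 FPKM and from 197.42 to 217.01 FPKM. In co-culture relative to IL-1β, Psmb5 rose by a log2 fold change of 0.16 and Psmb7 by 0.15, and Psmb6 was at 0.11 without passing the test (limma adjusted p = 0.0058, 0.0061 and 0.13). Both rises were lost with median-of-ratios scaling (limma adjusted p = 0.076 and 0.079). With quantile normalization 2 of these 3 genes rose, and after rescaling to the same sum 3 did. The Psmb5 libraries in co-culture had 230.98, 209.34 and 215.18 FPKM, the Psmb6 libraries 227.66, 197.42 and 213.89 FPKM and the Psmb7 libraries 231.84, 224.63 and 234.97 FPKM.

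The inducible share of each catalytic pair, that is the FPKM of the inducible subunit as a percent of the FPKM of both, removes any factor common to a whole library. Psmb9 made up 6.97 ± 0.66% of Psmb9 and Psmb6 in control, 4.79 ± 0.55% with IL-1β and 6.66 ± 0.74% in co-culture (SD, n = 3). Psmb10 made up 9.42 ± 0.76%, 6.71 ± 0.46% and 8.28 ± 0.91% of its pair with Psmb7. For both pairs the IL-1β libraries lay below all others, with a two-sided exact permutation p of 0.1 against either group, the smallest that 3 against 3 libraries can give. Psmb8 made up 6.34 ± 0.66%, 5.50 ± 0.23% and 5.84 ± 0.69% of its pair with Psmb5, and here the IL-1β and control libraries overlapped (exact permutation p = 0.2). The IL-1β and co-culture libraries of this pair overlapped too (exact permutation p = 0.5). Their difference in log2 ratio was 0.08, and -0.000925 without co-culture replicate 3.

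**Figure D3:**
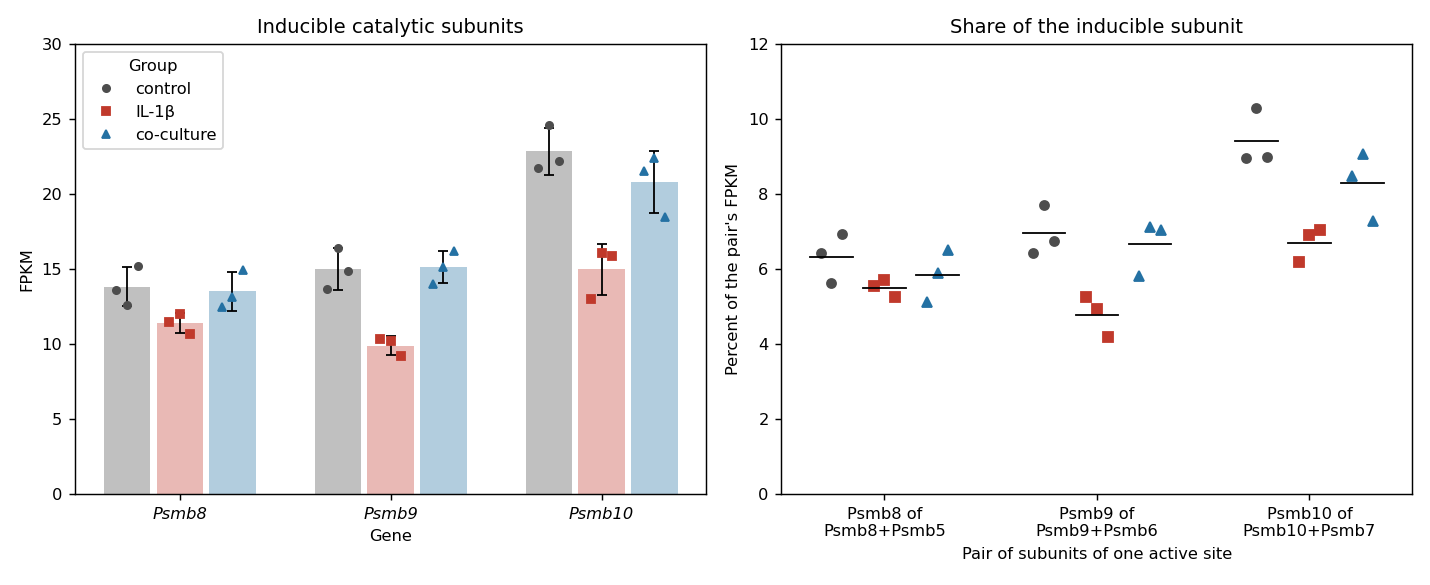
Levels in FPKM of Psmb8, Psmb9 and Psmb10 per library, with bars for the group mean and error bars of 1 SD (left), and the inducible share of each catalytic pair in percent, with lines for the mean (right). The IL-1β libraries lie at 9.18 to 10.36 FPKM for Psmb9 and 13.01 to 16.1 FPKM for Psmb10, below every control and co-culture library.

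The promoter windows of these 3 genes and of the activator gene Psme2 are shown because all 4 belong to the genes known to respond to interferons, while their changes here differed. The sequences are from RefSeq for the rat build GRCr8, which is not the build named for the deposited values, and were matched by gene identifier. They run 5' to 3' on each gene's strand: Psmb8 at chr20:4656982-4657281 (minus strand), Psmb9 at chr20:4668750-4669049 (plus), Psmb10 at chr19:50743243-50743542 (minus) and Psme2 at chr15:33052702-33053001 (minus). Capitals mark the interferon regulatory factor motif, searched as GAAA, any 2 bases and GAAA, and the gamma-activated site of interferon-responsive genes, searched as TTCNNNGAA, on either strand. The motifs do not overlap in these windows.
Psmb8: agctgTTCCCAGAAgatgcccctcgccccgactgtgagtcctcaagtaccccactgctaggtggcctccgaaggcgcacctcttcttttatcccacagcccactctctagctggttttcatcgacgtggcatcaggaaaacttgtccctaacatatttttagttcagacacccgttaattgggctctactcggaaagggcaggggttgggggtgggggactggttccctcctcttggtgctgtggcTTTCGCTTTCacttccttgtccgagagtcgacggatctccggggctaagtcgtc
Psmb9: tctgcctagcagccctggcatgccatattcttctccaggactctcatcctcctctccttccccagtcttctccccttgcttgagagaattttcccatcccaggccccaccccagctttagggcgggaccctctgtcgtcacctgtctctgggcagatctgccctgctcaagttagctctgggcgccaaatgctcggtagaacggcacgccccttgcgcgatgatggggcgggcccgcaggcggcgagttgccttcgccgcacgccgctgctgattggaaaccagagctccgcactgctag
Psmb10: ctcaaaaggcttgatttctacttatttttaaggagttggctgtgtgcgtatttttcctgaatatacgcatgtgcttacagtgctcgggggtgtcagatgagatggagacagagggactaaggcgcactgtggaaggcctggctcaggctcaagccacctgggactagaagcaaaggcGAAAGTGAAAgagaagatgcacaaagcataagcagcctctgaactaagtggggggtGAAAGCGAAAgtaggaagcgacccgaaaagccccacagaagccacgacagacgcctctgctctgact
Psme2: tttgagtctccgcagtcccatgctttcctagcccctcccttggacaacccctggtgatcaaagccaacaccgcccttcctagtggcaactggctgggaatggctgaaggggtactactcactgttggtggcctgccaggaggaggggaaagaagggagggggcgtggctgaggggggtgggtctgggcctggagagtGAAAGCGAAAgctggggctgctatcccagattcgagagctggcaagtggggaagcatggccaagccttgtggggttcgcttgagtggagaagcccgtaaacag

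Psmb10 held the interferon regulatory factor motif at positions 178 to 187 and 234 to 243 of its window, Psme2 at 198 to 207, and Psmb8 on the reverse strand at 247 to 256. Psmb8 also held TTCNNNGAA at positions 6 to 14, and in the Psmb9 window neither was found. Positions are counted from 1 at the 5' end of the window. Of the 43 members with a promoter entry, 7 held the interferon regulatory factor motif (16.3%), against 3.77% of all 27457 promoters in the table: Psmb8, Psmb10, Psme2, Psma4, Psmb3, Psmd7 and Psmg4. TTCNNNGAA was in 9.3% of the members' windows and 8.68% of all. TGACNNNGC, the letters of the antioxidant element to which NFE2L1 and NFE2L2 bind, was in 18.6% and 12.2%, and the consensus of the NF-kappaB site in 11.6% and 7.6%. A match is a description of letters in these windows. Of the 7 members with the interferon regulatory factor motif, Psmb8, Psmb10 and Psma4 were called lower with IL-1β. The others, Psme2, Psmb3, Psmd7 and Psmg4, were not called. Psmb9 and Psme1, without that motif in their windows, fell. So did Psmb2, Psmc1, Psmc2, Psmc3, Psmc6, Psmd1, Psmd5, Psme3 and Psme4, whose windows held no match either. The search covered 300 bases and exact letters, so a site elsewhere or in other letters would be missed. Whether the motif bears on these changes was not tested.

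Psmb8 and Psmb9 lie next to the peptide transporter genes in the MHC, in the order Tap2, Psmb8, Tap1, Psmb9 in the RefSeq table. Tap1 and Tap2 form the transporter that carries peptides made by the proteasome into the endoplasmic reticulum. Tap2 had 12.10, 12.76 and 12.54 FPKM in control, 10.32, 10.32 and 10.37 FPKM with IL-1β, and 12.24, 12.65 and 11.20 FPKM in co-culture. It fell by 0.25 on the log2 scale with IL-1β (limma adjusted p = 0.0011) and rose by 0.20 in co-culture relative to IL-1β. Tap1 fell by 0.16 with IL-1β (limma adjusted p = 0.039), a call made in 9 of 18 alternatives and lost with median-of-ratios scaling and on leaving out any control replicate or IL-1β replicate 2 or 3 (highest adjusted p = 0.15), and its control range of 12.68 to 13.18 FPKM lay above the IL-1β range of 10.48 to 12.40 FPKM. From IL-1β to co-culture Tap1 changed by 0.09 and was not called (limma adjusted p = 0.24).

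Of the 7 genes of peptide transport and trimming, 2 rose and 4 fell with IL-1β, where 20.5% and 31.2% of all genes did. Tapbp, the tapasin that links the transporter to class I molecules, fell by 0.38 and then rose by 0.41 in co-culture relative to IL-1β. B2m, the light chain of class I molecules, went the other way: it had 144.70, 136.71 and 139.38 FPKM in control, 223.47, 251.30 and 236.41 FPKM with IL-1β, and 168.59, 162.62 and 171.77 FPKM in co-culture. Its log2 fold changes were 0.75 and -0.50, so the light chain was high in the libraries in which the inducible catalytic subunits were low.

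Among 12 tested regulators of immunoproteasome genes, 7 rose and 4 fell with IL-1β, where 20.5% and 31.2% of all genes did. Irf1, an interferon regulatory factor known to act on Psmb8, Psmb9 and Psmb10, had 13.94, 14.12 and 14.21 FPKM in control, 9.60, 11.02 and 8.76 FPKM with IL-1β, and 13.44, 12.92 and 12.64 FPKM in co-culture. The IL-1β libraries were below all others, with log2 fold changes of -0.49 (SE 0.07, limma adjusted p = 6.9e-05) with IL-1β and 0.38 (SE 0.07, limma adjusted p = 0.00055) from IL-1β to co-culture. Nfkb1, a subunit of NF-kappaB, rose by 1.30 with IL-1β, and Jak2, a kinase of cytokine receptors, by 0.60. Nlrc5, the transactivator of class I genes, was at 0.02 to 0.07 FPKM and was not tested. Whether any of these regulators acts on the proteasome genes was not tested.

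Leukocytes express the immunoproteasome at high levels, so their markers are given beside it, together with those of other cell types. The 13 macrophage and leukocyte markers summed to 31.1 to 32.5 FPKM in control, 42.5 to 49.3 FPKM with IL-1β and 31.3 to 34.5 FPKM in co-culture. Of the 5 tested 2 rose and 1 fell with IL-1β, where 20.5% and 31.2% of all genes did. Of the 13, 8 had IL-1β libraries above all control libraries, 2 below and 3 overlapping. Among all genes tested, 23.3% lay above and 35% below without overlap. Cd14 had 12.87 to 14.04 FPKM in control, 22.00 to 23.58 FPKM with IL-1β and 15.50 to 16.05 FPKM in co-culture. Cd68 had 2.01 to 2.82, 3.84 to 5.59 and 1.81 to 2.67 FPKM, and both rose with IL-1β, Cd14 by 0.71 (limma adjusted p = 7.7e-08) and Cd68 by 0.80 (limma adjusted p = 0.00054) on the log2 scale. Lyz2 fell, from 9.65 to 11.39 FPKM in control to 7.65 to 8.43 FPKM with IL-1β. These 3 were the most abundant of the list in the IL-1β libraries.

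Among the markers too low to be tested, 3 that were chosen after their values were seen lay higher in all IL-1β than in all control libraries: Adgre1 (0.46 to 0.52 FPKM in control, 0.94 to 1.54 FPKM with IL-1β), Mrc1 (0.51 to 0.84 and 1.29 to 1.73 FPKM) and Cd163 (0.02 to 0.05 and 0.35 to 0.54 FPKM). Of the others, Ptprc was at 0.04 to 0.13 FPKM, Cd74 at 0 to 0.32 FPKM and Csf1r at 0.26 to 0.38 FPKM over the 9 libraries. Adgre1, Mrc1 and Cd163 are a selection, since the full list also held markers that lay below control or overlapped it. The summed markers were highest in the 3 IL-1β libraries, where Psmb9 and Psmb10 were lowest, and their part in the changes of the proteasome genes was not tested.

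The summed fibroblast markers and those of 2 further cell types were lower in all IL-1β libraries than in all others. The fibroblast list summed to 13725 ± 315.3 FPKM in control, 11628.5 ± 89.21 FPKM with IL-1β and 12393.3 ± 110.7 FPKM in co-culture (SD, n = 3). Of its 11 genes 6 rose and 5 fell with IL-1β, where 20.5% and 31.2% of all genes did. The skeletal muscle list summed to 14.45 ± 0.81 FPKM in control, 3.62 ± 0.41 FPKM with IL-1β and 13.04 ± 0.23 FPKM in co-culture (SD, n = 3). Nearly all of it was Des, the intermediate filament protein desmin, whose log2 fold changes were -1.76 (limma adjusted p = 4.1e-10) and 1.62 (limma adjusted p = 1.5e-09), while Acta1 and Ckm were at 0 to 0.16 FPKM. The keratinocyte list summed to 2.09 ± 0.20, 1.60 ± 0.22 and 2.46 ± 0.19 FPKM in the same order. Its 1 tested gene, Krt10, had a log2 fold change of -0.08 with IL-1β (limma adjusted p = 0.49) and rose by 0.36 from IL-1β to co-culture (limma adjusted p = 0.0077). The part of any of these lists in the changes of the proteasome genes was not tested.

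The activators open the gate of the core without ubiquitin. Psme1 and Psme2 form 1 ring together, Psme3 and Psme4 act mainly in the nucleus, and Psmf1 is an inhibitor of the core in vitro. Of these 5 genes 3 fell with IL-1β (31.2% of all genes) and 3 rose from IL-1β to co-culture (33.3% of all genes), with the same counts downward for IL-1β under each of the other 3 scalings. Psme1 had 120.09, 119.63 and 118.99 FPKM in control, 108.70, 107.86 and 108.76 FPKM with IL-1β, and 126.25, 117.16 and 119.54 FPKM in co-culture. All IL-1β libraries were lower, by a log2 fold change of -0.14 (SE 0.03, limma adjusted p = 0.0027), and from IL-1β to co-culture it was 0.16 (limma adjusted p = 0.0015).

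Its partner Psme2 had 31.63, 32.04 and 33.36 FPKM in control, 32.97, 34.59 and 32.02 FPKM with IL-1β, and 34.38, 33.97 and 34.70 FPKM in co-culture. The co-culture libraries lay above all control libraries, without a call (log2 fold change 0.08, limma adjusted p = 0.14). The control and IL-1β libraries overlapped, and the log2 fold change with IL-1β was 0.04 (SE 0.04, limma adjusted p = 0.45). The partners of 1 ring therefore differed in their calls, although whether their changes differ from each other was not tested.

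Psme3 had 78.50, 78.15 and 80.33 FPKM in control, 68.06, 67.88 and 73.14 FPKM with IL-1β, and 78.71, 77.68 and 80.84 FPKM in co-culture. It fell by 0.18 with IL-1β (limma adjusted p = 0.0012) and rose by 0.18 in co-culture relative to IL-1β (limma adjusted p = 0.0012). Psme4 had 26.77, 26.33 and 27.48 FPKM in control, 22.46, 22.60 and 24.15 FPKM with IL-1β, and 24.49, 25.27 and 25.33 FPKM in co-culture. Its co-culture libraries lay between the other groups without overlapping either: it fell by 0.21 with IL-1β (limma adjusted p = 0.00074), and the change from IL-1β to co-culture was 0.11 (limma adjusted p = 0.03), a call lost with median-of-ratios scaling (0.29), quantile normalization (0.18) and when any of IL-1β replicates 1 (0.091) or 2 (0.092) or co-culture replicates 2 (0.081) or 3 (0.08) was left out. Psmf1 had 34.47, 34.60 and 35.57 FPKM in control, 36.18, 36.22 and 33.16 FPKM with IL-1β, and 33.52, 37.16 and 38.38 FPKM in co-culture, and was not called in any comparison.

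In the cap, 1 of 17 subunits rose and 5 fell with IL-1β, where 20.5% and 31.2% of all genes did. Median-of-ratios scaling gave 5 risen and 1 fallen, quantile normalization 0 and 7, and rescaling to the same sum 0 and 10. The direction of the cap as a whole thus depended on the scaling. Of the 5 falls as deposited, 4 lay in the 6-gene ATPase ring of the base, which unfolds substrates. In that ring 1 rose and 1 fell with median-of-ratios scaling, 0 and 4 with quantile normalization, and 0 and 5 after rescaling. Psmc3 had 218.90, 221.68 and 230.00 FPKM in control, 196.33, 196.32 and 193.09 FPKM with IL-1β, and 236.32, 233.22 and 227.22 FPKM in co-culture. The IL-1β libraries were below the 6 others, with log2 fold changes of -0.19 (SE 0.03, limma adjusted p = 0.00016) and 0.25 (SE 0.03, limma adjusted p = 2.7e-05), both called in all 18 alternatives. The other ATPases that fell, Psmc1, Psmc2 and Psmc6, had log2 fold changes of -0.09 to -0.11, Psmc4 and Psmc5 were not called (0.04 and -0.05), and 5 of the 6 ATPases rose from IL-1β to co-culture. The falls of Psmc1 and Psmc6 were called in 7 and 10 of the 18 alternatives, lost for Psmc1 without any 1 of the control or IL-1β libraries or co-culture replicate 2, and for Psmc6 without control replicate 2 or 3, IL-1β replicate 1 or 2, or co-culture replicate 2.

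Among the 3 base subunits without ATPase activity, Psmd1, a scaffold, fell with IL-1β by 0.08, a call made in 11 of 18 alternatives and lost without control replicate 2 or 3 or IL-1β replicate 1 or 2 (adjusted p of 0.084 to 0.11) and with median-of-ratios scaling (0.3). Psmd2, the other scaffold, and Psmd4, a ubiquitin receptor, were not called, with log2 fold changes of -0.02 and 0.02. In the lid, which carries the deubiquitinating subunit Psmd14, 1 of 8 genes rose and 0 fell by limma, with 1 and 1 at an unadjusted p under 0.05. Psmd14 had 97.83, 116.01 and 116.33 FPKM in control and 105.00, 104.03 and 117.44 FPKM with IL-1β, which overlap. The lid gene that rose was Psmd12, by 0.09 (limma adjusted p = 0.044), and its value was -0.00293 after rescaling to the same sum. That call was made in 7 of 18 alternatives and was lost without control replicate 1 or 2, IL-1β replicate 2 or 3, or co-culture replicate 1 or 3. The other lid genes, Psmd3, Psmd6, Psmd7, Psmd8, Psmd11 and Psmd13, were not called and ranged from -0.08 for Psmd7 to 0.07 for Psmd8. From IL-1β to co-culture, 8 of the 17 cap subunits rose and 0 fell by limma, with 10 and 0 at an unadjusted p under 0.05, where 33.3% of all genes rose and 16.7% fell. These were the ATPases other than Psmc4, the scaffolds Psmd1 and Psmd2, and in the lid Psmd7, and of the 8 rises that of Psmc3 was called with median-of-ratios scaling. With quantile normalization 8 cap subunits rose, Psmd1 not among them, and 0 fell. After rescaling to the same sum 11 rose and 0 fell.

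The largest change of any member was in Psmd10, known as gankyrin, a chaperone of base assembly that also binds cell cycle proteins. It had 8.32, 12.52 and 14.89 FPKM in control, 31.37, 32.45 and 22.86 FPKM with IL-1β, and 17.81, 18.99 and 17.31 FPKM in co-culture. The 3 groups did not overlap, although libraries within the control and the IL-1β group differed widely. The ratio of means was 2.43-fold with IL-1β (log2 fold change 1.23, SE 0.21, limma adjusted p = 0.0025), called in all 18 alternatives. From IL-1β to co-culture the log2 fold change was -0.64 (SE 0.21, limma adjusted p = 0.044), a call made in 10 of 18 alternatives. It was lost on leaving out IL-1β replicate 1 (adjusted p = 0.12) or 2 (0.12), control replicate 2 (0.066), or co-culture replicate 1 (0.11), 2 (0.086) or 3 (0.11), on rescaling to the same sum (0.06) and with the replicate number as a block (0.082).

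Psmd5, another chaperone of the base, moved in the opposite direction. It had 58.17, 54.36 and 53.48 FPKM in control, 43.57, 43.78 and 45.86 FPKM with IL-1β, and 55.12, 54.38 and 53.32 FPKM in co-culture. All IL-1β libraries were below the others, with log2 fold changes of -0.31 (SE 0.04, limma adjusted p = 3.2e-05) and 0.28 (SE 0.04, limma adjusted p = 8.3e-05). The third base chaperone, Psmd9, was not called in any of the comparisons, at -0.06 with IL-1β. Both calls of Psmd5 were made in all 18 alternatives.

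**Figure D4:**
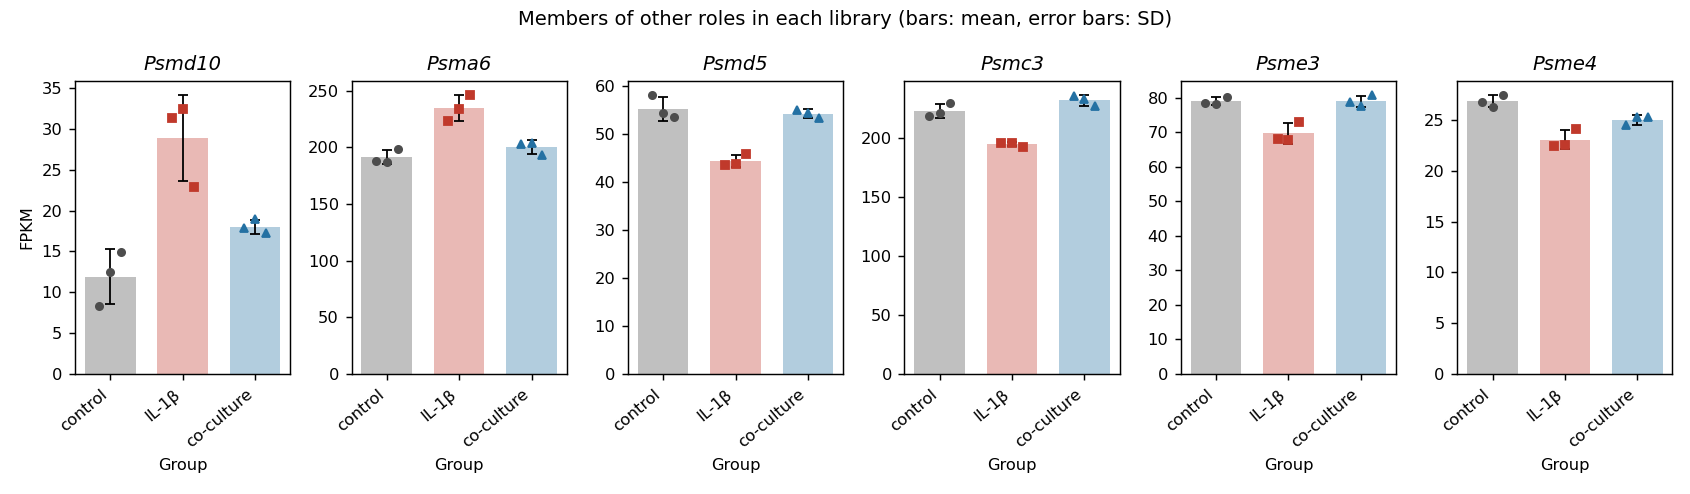
Level in FPKM per library of Psmd10, Psma6, Psmd5, Psmc3, Psme3 and Psme4, with bars for the group mean and error bars of 1 SD. Psmd10 is at 8.32 to 14.89 FPKM in control and 22.86 to 32.45 FPKM with IL-1β, and Psmd5 at 53.48 to 58.17 FPKM and 43.57 to 45.86 FPKM.

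In the constitutive core, 2 of 14 genes rose and 3 fell with IL-1β, where 20.5% and 31.2% of all genes did. With median-of-ratios scaling 2 rose and 0 fell, with quantile normalization 1 and 8, and after rescaling to the same sum 1 and 9. Over the 11372 genes tested, falls numbered 2877, 3448 and 5135 with these 3 scalings. The median log2 fold change of the core was -0.04 as deposited, and 0.01, -0.11 and -0.13 with them. Psma6, an alpha-ring subunit that helps form the gate through which substrates enter, had 188.11, 187.08 and 198.32 FPKM in control, 223.14, 234.17 and 246.21 FPKM with IL-1β, and 203.19, 203.87 and 193.18 FPKM in co-culture. Its IL-1β libraries were above all 6 others, with log2 fold changes of 0.29 (SE 0.04, limma adjusted p = 8.6e-05) and -0.23 (SE 0.04, limma adjusted p = 0.00068). Among the 14 core subunits only Psma6 was called higher with IL-1β and lower in co-culture relative to IL-1β, and both calls were made in all 18 alternatives.

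The other core subunit called higher with IL-1β was Psma2, at 0.09 (limma adjusted p = 0.033), and its value was -0.000226 after rescaling to the same sum. Its call was lost without control replicate 1 or 2 and without IL-1β replicate 2 or 3 (adjusted p of 0.069 to 0.12). Psma4, Psma7 and Psmb2 fell, by 0.11, 0.11 and 0.14, and these calls were made in 9, 13 and 10 of 18 alternatives. All 3 were lost with median-of-ratios scaling, without control replicate 3 and without IL-1β replicate 1. Psma7 had 207.39, 217.82 and 223.70 FPKM in control, 198.52, 204.36 and 196.85 FPKM with IL-1β, and 238.70, 231.70 and 224.43 FPKM in co-culture. Its groups did not overlap in either step, and the change from IL-1β to co-culture was 0.21 (SE 0.04, limma adjusted p = 0.00044). The most abundant member, Psmb1, had 329.11, 330.75 and 336.77 FPKM in control and 332.41, 332.01 and 344.95 FPKM with IL-1β, which overlap. Psma1, Psma3, Psma5, Psmb3 and Psmb4 were also not called with IL-1β, with log2 fold changes from -0.07 for Psma1 to 0.02 for Psmb3. From IL-1β to co-culture 6 core genes rose, namely Psma1, Psma4, Psma7, Psmb2, Psmb5 and Psmb7, and 1, Psma6, fell, where 33.3% and 16.7% of all genes did. The rises ranged from 0.13 for Psma4 to 0.21 for Psma7, and only that of Psma7 was called with median-of-ratios scaling. Quantile normalization gave 10 rises and 1 fall among the core genes, and rescaling to the same sum also gave 10 and 1.

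Some members lie beside genes that changed strongly with IL-1β, and these neighbours were picked after their values had been seen. Psma6 is adjacent to Nfkbia, the inhibitor of NF-kappaB, in the RefSeq table; Nfkbia rose from 20.0 ± 0.86 to 88.1 ± 1.39 FPKM with IL-1β and was at 26.7 ± 0.56 FPKM in co-culture (SD, n = 3). Psmd10 is adjacent to Atg4a, a protease of autophagy, which had 7.52 ± 0.77, 12.3 ± 1.36 and 7.96 ± 0.18 FPKM in the 3 groups. Psme3 is adjacent to Aoc3, whose log2 fold changes were -2.71 with IL-1β and 1.79 from IL-1β to co-culture. Those of Psme3 were -0.18 and 0.18. Psmd12 (0.09 with IL-1β) is adjacent to Pitpnc1 (0.61), and Psmg2 (-0.10, not called) to Ptpn2 (0.42). Psmd3 and Psmd14 were not called with IL-1β either. These pairs are a selection, and whether position bears on the changes was not tested. Psmd3 is adjacent to Csf3, a growth factor of granulocytes, which went from 0.19 to 327.8 FPKM, while Psmd3 changed by 0.04 on the log2 scale. Psmd14 is adjacent to Tank, an adaptor of NF-kappaB signalling, which went from 14.5 to 27.9 FPKM, while Psmd14 changed by -0.01.

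The core assembly chaperones Psmg1 to Psmg4 pair the alpha subunits as the ring forms. With IL-1β, 0 of 4 were called by limma (51.7% of all genes were) and 0 at an unadjusted p under 0.05. Their values lay between -0.10 for Psmg2 and 0.13 for Psmg3. From IL-1β to co-culture Psmg1 rose by 0.12 and Psmg2 by 0.15, calls made in 5 and 12 of 18 alternatives and both lost without IL-1β replicate 1, co-culture replicate 1 or co-culture replicate 3. Pomp, which guides the beta ring and is known to favour the immunoproteasome, had 98.42, 92.78 and 132.99 FPKM in control, 118.00, 114.46 and 136.59 FPKM with IL-1β, and 78.37, 102.86 and 64.26 FPKM in co-culture. Its libraries spread widely within groups, and the change with IL-1β was not called (0.20, limma adjusted p = 0.47). From IL-1β to co-culture it fell by 0.60 (limma adjusted p = 0.0499), a call made in 8 of 18 alternatives and lost without control replicate 1 or 2, any IL-1β replicate, or co-culture replicate 1 or 3 (highest adjusted p = 0.13).

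Relative to control, the co-culture libraries were higher for Psma2, Psmc4, Psmd2, Psmd12, Psmd13 and Psmc3ip. The first 5 are core and cap subunits with log2 fold changes of 0.10 to 0.12, and their calls were made in 7 to 11 of 18 alternatives. All 5 were lost without control replicate 1, without control replicate 2 and without co-culture replicate 1. Psmc3ip, the recombination protein, had 16.60, 18.61 and 21.55 FPKM in control, 21.45, 23.32 and 22.42 FPKM with IL-1β, and 28.70, 27.64 and 23.34 FPKM in co-culture. Its co-culture libraries were above the control libraries, with a log2 fold change of 0.47 (SE 0.09, limma adjusted p = 0.0062), called in all 18 alternatives. The 3 immunoproteasome subunits were not called between co-culture and control (0 of 3 by limma, 0 at an unadjusted p under 0.05), with a median log2 fold change of -0.03. Of all genes, 20.3% were called in this comparison.

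Genes that control or accompany the proteasome were taken from lists of their own. Nfe2l1, the factor known to raise proteasome genes when the proteasome is inhibited, had 62.78, 60.87 and 60.62 FPKM in control and 62.09, 63.49 and 63.99 FPKM with IL-1β, which overlap (log2 fold change 0.04, limma adjusted p = 0.29). Nfe2l2, the related factor of the oxidative stress response, rose by 0.41 with IL-1β (limma adjusted p = 3.1e-07), and the change from IL-1β to co-culture was -0.37. The small Maf genes, whose proteins pair with both factors, rose with IL-1β by 0.77 for Mafk, 0.78 for Maff and 0.60 for Mafg. In the list of transcription and processing genes, 4 of 8 rose and 2 fell with IL-1β, where 20.5% and 31.2% of all genes did.

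Other proteasome genes without a Psm symbol included the ubiquitin receptor Adrm1, which rose by 0.17 with IL-1β (limma adjusted p = 0.0048, and 0.17 after rescaling to the same sum), and the lid subunit Shfm1, which fell by 0.24 (limma adjusted p = 0.0015). Of the 10 genes in that list 2 rose and 1 fell. Of 14 ubiquitin genes and shuttles, 0 rose by limma (0 at an unadjusted p under 0.05) and 1 fell: Sqstm1, a ubiquitin receptor of autophagy, by 0.32 (limma adjusted p = 1.2e-06). Over all genes 20.5% rose and 31.2% fell with IL-1β, the background for both lists.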

How the data were processed

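The values were FPKM per gene, deposited by the authors as 1 table of 9 columns, per the file headers; all 9 matched a sample's label. GRCm38 is the build that the submitters' processing notes name. Which aligner and gene annotation were used is not given in the sources used here. Because FPKM is relative within a library and holds no counts, depth is unknown and precision rests on the spread between 3 libraries.

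Genes with a mean of at least 1 FPKM (11372) were fitted as log2(FPKM + 1) with limma 3.58.1 (R 4.3.3). All 9 libraries entered 1 fit with a term per group, moderated by empirical Bayes with a trend and robust settings. The scale understates changes of low genes. P-values are two-sided and Benjamini-Hochberg adjusted over all genes tested, threshold 0.05. Pairs of catalytic subunits were compared as log2 ratios by exact permutation. The fit was also run on simulated data in which few genes changed, with rises and falls balanced. That run cannot show how scaling affects the counts in these data.

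Members and lists were chosen with earlier results of these data known. Named were all members, up to 3 genes with the smallest p per comparison and 2 with the highest FPKM of each other list, and Nfe2l1, Irf1, Nlrc5, Pomp and Tap1; 1 further gene of the rule is not reported here. Of 47 members, 47 matched the RefSeq gene table and 43 its promoter table; 19 have a RefSeq pseudogene named after them, Psma6 and Psme1 among them, and how its reads were counted is unknown. The 18 alternatives changed the pseudocount (0.1), the filter (none, or at least 5 FPKM), the scaling (median of ratios, quantile, or the same FPKM sum in every library), the groups fitted, the moderation and the replicate block, or left out each library in turn.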

Additional observations from a re-analysis of the deposited data

How the results depend on the processing

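Counts of called members depended on the scaling. With IL-1β, 4 rose and 15 fell as deposited, 9 and 8 with median-of-ratios scaling, 2 and 29 after rescaling to the same sum, and 2 rose without trend and robust settings. From IL-1β to co-culture, 23 rose and 2 fell, 7 rose with median-of-ratios scaling and 1 fell after rescaling. Between co-culture and control, 6 rose and 0 fell, 2 and 1 with median-of-ratios scaling, 1 and 1 with quantile normalization, 1 and 1 after rescaling, and 1 rose without trend and robust settings. Leaving out 1 library gave 2 to 6 rises and 8 to 15 falls, 13 to 25 rises and 1 to 2 falls, and 1 to 6 rises and 0 falls in these comparisons. With the replicate number as a block, 4 rose and 13 fell, 23 rose and 1 fell, and 6 rose and 0 fell. After each gene's group mean was subtracted, same-numbered libraries of different groups correlated at -0.046 to 0.189 over 9 pairs. Libraries with different numbers correlated at -0.221 to 0.133. Subtracting a mean of 3 libraries constrains these correlations, so they cannot show whether the numbers mark pairs. No label states a pairing, and the numbers were not taken as pairs. Signs turned after rescaling for Psmd12 (-0.00293), Psma2 (-0.000226) and Txnl1 (-0.0835) with IL-1β, and with quantile normalization for Pdia3 (-0.114) between co-culture and control. Quantile normalization moved the log2 pair ratios with IL-1β to -0.0723 for Psmb8/Psmb5 and -0.389 for Psmb10/Psmb7, from -0.212 and -0.53. For all of these, the cause was not tested. Depth is unknown, so what it limits cannot be stated.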
